A study of Arabidopsis thaliana with 4 samples.

Results

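The chloroplast keeps a small genome of its own, and this account follows the genes of that genome that serve gene expression and other upkeep rather than photosynthesis, in rosette leaves given flavin adenine dinucleotide (FAD). The members were chosen by gene name from the probe annotation, by a rule that uses no signal value but was set with earlier results of these data known. They are the plastid-encoded genes for ribosomal proteins (rps for the small and rpl for the large subunit), for the plastid RNA polymerase (rpo), and matK, clpP, accD, ccsA, cemA and the ycf genes on the list. All 32 listed genes had a probe set, out of 76 plastid-encoded genes with a named probe set and 22746 probe sets in all. There were 10 genes of the small subunit, 9 of the large subunit, 4 of the polymerase and 9 others. The gene rps12 had a pair of probe sets, so that 33 probe sets were followed, and the brighter one stands for rps12 in all counts.

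Plants were wild-type Arabidopsis thaliana of the Col-0 accession, 3 weeks old, grown in soil at 23°C with 16 h of light and 8 h of darkness. Rosette leaves were cut off 4 h into the light period and lay for 1 h on water (mock) or on FAD at 0.1 mM, so both groups consisted of detached, floating leaves. Each group had 2 biological replicates by its labels, with 1 Affymetrix array each, or 4 arrays in total. FAD serves many oxidoreductases as a bound cofactor, and the comparison asks which transcripts differ when it is supplied from outside.

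Plastid genes are read by a bacterial-type polymerase, whose core subunits are encoded by rpoA, rpoB, rpoC1 and rpoC2 and whose promoter choice depends on nuclear-encoded sigma factors, and by phage-type polymerases encoded in the nucleus. The messages are translated on bacterial-type ribosomes that combine plastid-encoded and nuclear-encoded proteins. Most plastid genes lie in clusters that are transcribed together and then processed. Labelling kits of the 3' type used here commonly start from poly(A) tails, which plastid RNAs carry mainly as a short-lived mark for degradation. Which plastid RNA molecules the signals stand for was not tested.

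The unit throughout is the deposited signal intensity of a probe set. Intensities of different probe sets cannot be set against each other as levels, so each gene is compared only with itself. A probe set was tested when its mean log2 signal over the 4 arrays was at or above the 40th percentile, which corresponds to a geometric mean of 63.59. By this filter 13648 probe sets were tested, among them 30 of the 32 members; rpoB and ycf2 were too dim. The trimmed mean of the signals was 500.1 on every array. FAD replicate 2 stood apart in its hybridisation controls: the first set of 9 spike-in probe sets was dimmer there by a median factor of 5.43, while for the second set of 9 the other arrays had a median of 0.908 of its signal. The 3' to 5' signal ratio of actin, a reading of RNA integrity, was 31.0 and 33.0 on the mock arrays and 23.6 and 27.5 on the FAD arrays, and a second actin pair also had both FAD values below both mock values. The other 4 of the 6 such ratios overlapped, and the part of RNA quality in the results was not tested. The leaf markers RCA and LHCB4.1 gave at least 36925 and 34490.1 on each array, and the root markers EXPA7 and EXPA18 at most 53.3 and 69.7.

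No member passed the test for a difference between FAD and mock leaves. In limma's moderated test, fitted over all 13648 probe sets with Benjamini-Hochberg adjustment at 0.05, 0 of the 30 tested members were called higher and 0 were called lower, with adjusted p between 0.539 and 0.997. Over all tested probe sets the same rule called 0.0366% lower and 0% higher. At an unadjusted p under 0.05, 2 members were lower on FAD (rpl33 and rps16) and 0 were higher, against 3.84% and 3.03% of all tested probe sets. In bulk leaf RNA, a difference in transcripts per chloroplast and one in chloroplasts per leaf could not be told apart.

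The values of the members lay mostly just below 0. Of the 30 tested members 22 had a negative and 8 a positive log2 fold change, while 5800 of the 13648 tested probe sets were negative. The median was -0.10 over the members and 0.05 over all tested probe sets. The 95% confidence interval included 0 for 28 members, and for 26 of the 30 it stayed within a 2-fold difference in both directions. The standard error of a log2 fold change ran from 0.14 to 0.37 among the members. For 8 members, or 26.7%, both FAD signals were under both mock signals, where the share of all tested probe sets was 15%. For 2 members, or 6.67%, both FAD signals were over both mock signals, where that share was 22%. With 2 arrays in each group the smallest two-sided p of an exact permutation test is 0.33, so no gene could pass that test.

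**Figure D1:**
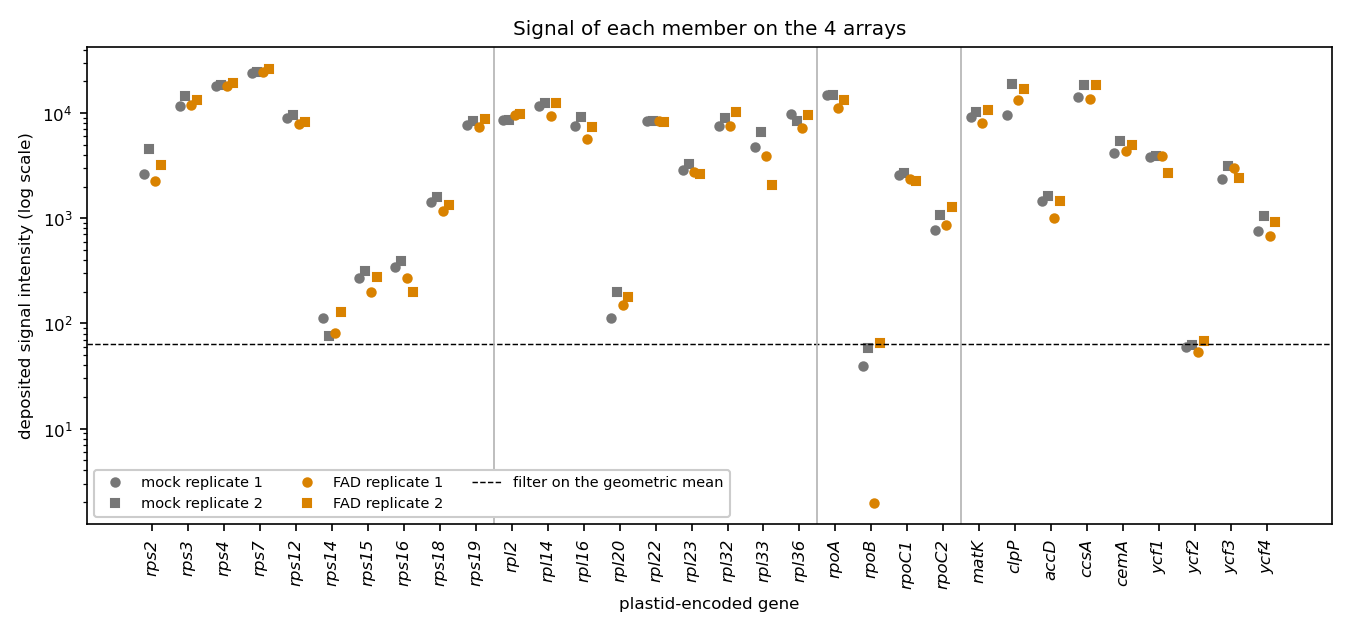
Deposited signal intensity of each of the 32 genes on the 4 arrays, on a log scale; each gene has 4 points, grey for mock and orange for FAD leaves, circles for replicate 1 and squares for replicate 2. The dashed line marks the geometric mean of 63.59 that a probe set needed to be tested; the points of rpoB and ycf2 lie around it, with rpoB at 1.98 on FAD replicate 1.

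The median of the members depended on single arrays. It was -0.24 without mock replicate 1, 0.01 without mock replicate 2, 0.06 without FAD replicate 1 and -0.17 without FAD replicate 2. The direction of the median therefore changed when either mock replicate 2 or FAD replicate 1 was left out. Within replicate number 1 the median of FAD over mock was -0.10, and within replicate number 2 it was -0.17. Of the 30 members 13 were below mock within both numbers, or 43.3%, against 23.3% of all tested probe sets, and 4 were above mock within both, against 4683 of the 13648 tested probe sets.

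The proteins of the small ribosomal subunit decode the message. Of their 10 genes, all tested, 7 had a negative and 3 a positive log2 fold change, and the median was -0.14. The median ran from -0.24 to -0.03 with 1 array left out.

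The gene with the lowest value in this subunit was rps16 (ArthCp004), named for a protein of the body of the subunit. Whether its transcript yields a protein in these leaves was not tested. The signal of rps16 was 347 and 389 on the mock arrays and 267 and 199.5 on the FAD arrays. Both FAD arrays were thus below both mock arrays, and FAD replicate 2 was the lowest. The log2 fold change was -0.67 with a 95% confidence interval from -1.20 to -0.14 (limma adjusted p = 0.583), a ratio of mock over FAD of 1.59. Without FAD replicate 2, the array with the dim spike-ins, it was -0.46.

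For rps12, whose transcript is joined by trans-splicing and whose protein in bacteria acts in decoding accuracy, the brighter probe set gave 9006 and 9618 in mock leaves against 7849 and 8252 in FAD leaves. The groups did not overlap, and the log2 fold change was -0.21 (95% interval from -0.55 to 0.13). The second rps12 probe set gave 1217 and 1004 in mock leaves against 1040.5 and 1050.1 in FAD leaves, where the groups overlapped, with a log2 fold change of -0.08. For rps18, a protein of the platform of the subunit, the signal was 1419 and 1598 in mock leaves against 1175 and 1325 in FAD leaves. The FAD values were again both below the mock values, at a log2 fold change of -0.27 (95% interval from -0.67 to 0.13).

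In rps2 the arrays of number 2 were the brighter ones in both treatments, with 2649.6 and 4508 in mock leaves against 2270.3 and 3191 in FAD leaves. Its log2 fold change was -0.36, and it was 0.02 without mock replicate 2. For rps15, a protein that binds the ribosomal RNA early in assembly, the signal was 268 and 317 in mock leaves against 200.4 and 276 in FAD leaves, at a log2 fold change of -0.31 with overlapping groups.

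The remaining small-subunit genes stayed closer to 0. The log2 fold change was -0.06 for rps3, -0.01 for rps19 and, for rps4, an RNA-binding protein that starts the assembly of the subunit in bacteria, 0.04, which turned to -0.05 with median centring. For rps7, another early assembly protein, the signal was 24065 and 24346 in mock leaves against 24388 and 26378 in FAD leaves. Both FAD arrays were above both mock arrays by a small margin (log2 fold change 0.07, 95% interval from -0.26 to 0.40), and the sign turned with quantile normalization and with median centring. The dimmest of the group, rps14, gave 113.5 and 75.6 in mock leaves against 81.3 and 129.4 in FAD leaves, which is a wide overlap with an interval from -0.71 to 1.01.

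The large subunit forms the peptide bond and holds the exit tunnel of the new protein. Its 9 genes were all tested, with 6 negative and 3 positive values and a median of -0.13. With 1 array left out the median ran from -0.19 to 0.07.

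The lowest log2 fold change of all tested members belonged to rpl33 (ArthCp043), a large-subunit protein that tobacco plants can do without except in the cold. Its signal was 4776 and 6624 on the mock arrays and 3867 and 2051 on the FAD arrays. Both FAD arrays were below both mock arrays, and FAD replicate 2 was the lowest of the 4. The log2 fold change was -1.0 with an interval from -1.71 to -0.28 (limma adjusted p = 0.539), a ratio of mock over FAD of 2.0. Within replicate number 1 it was -0.30 and within number 2 it was -1.69, and without FAD replicate 2 it was -0.54. With rps16 it was one of 2 members at least 1.5-fold lower, a size reached by 3.72% of all tested probe sets. None was at least 1.5-fold higher, against 4.29%.

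For rpl16, a protein near the binding site of incoming tRNA, the signal was 7482 and 9227 in mock leaves against 5634 and 7313 in FAD leaves. The highest FAD value was just below the lowest mock value, and the log2 fold change was -0.37 (95% interval from -0.82 to 0.07). For rpl23, which sits at the mouth of the exit tunnel, the signal was 2896 and 3277 in mock leaves against 2770.2 and 2638 in FAD leaves, a log2 fold change of -0.19 with groups that did not overlap. In the opposite direction stood rpl2, whose bacterial counterpart lies beside the peptidyl transferase centre. It gave 8630.3 and 8589 in mock leaves against 9627 and 9876 in FAD leaves, again without overlap, at a log2 fold change of 0.18 (95% interval from -0.15 to 0.51).

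The other large-subunit genes overlapped between treatments. The log2 fold change was -0.14 for rpl14, -0.13 for rpl36 and 0.08 for rpl32, which turned to -0.01 with median centring. For rpl22 it was -0.01 with the 4 arrays between 8246 and 8474, the narrowest range in this subunit. For rpl20, an assembly protein in bacteria, the signal was 111.5 and 200.5 in mock leaves against 149.7 and 177.7 in FAD leaves. The mock arrays thus enclosed the FAD arrays, and its value went from -0.30 without mock replicate 1 to 0.55 without mock replicate 2.

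**Figure D2:**
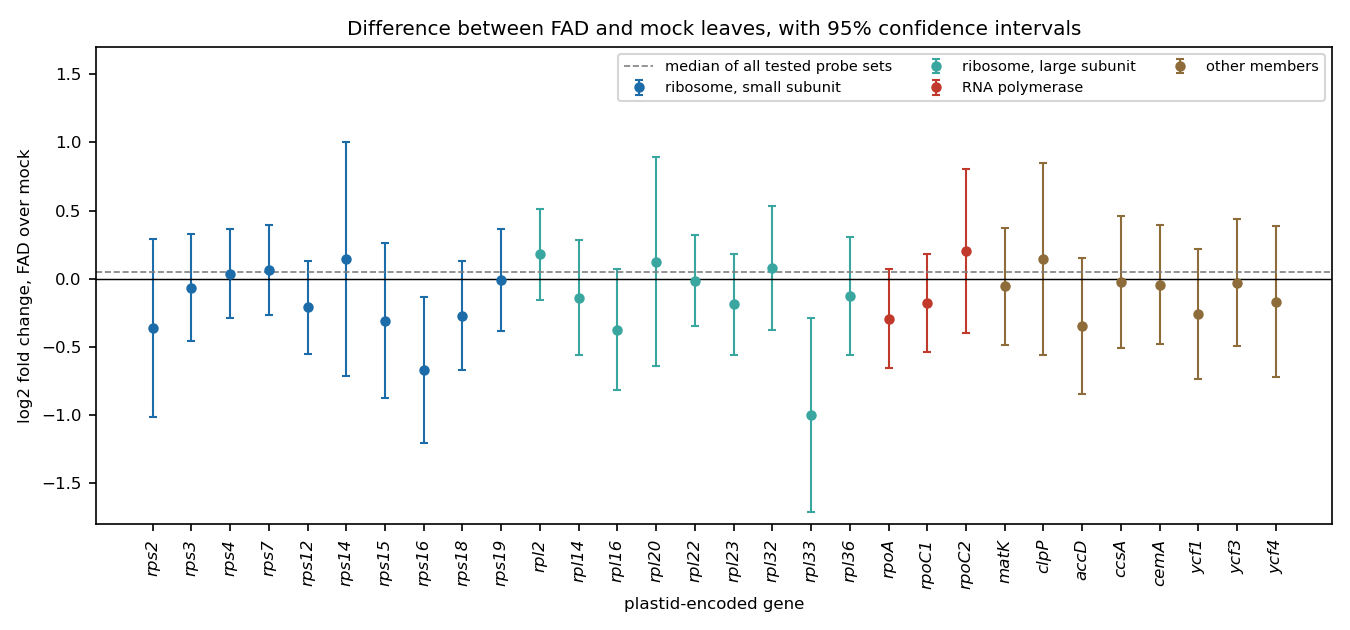
Log2 fold change of FAD over mock for the 30 tested members, coloured by role, with 95% confidence intervals from limma (2 arrays a group). The intervals of rps16 and rpl33 lie below 0, the other 28 include it; the dashed line is the median of all tested probe sets, 0.05.

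The plastid RNA polymerase had 3 tested genes, with a median of -0.18. For rpoA, the alpha subunit on which the enzyme assembles, the signal was 14791.5 and 14788 in mock leaves against 11051 and 13196.5 in FAD leaves. The mock arrays were nearly equal and both FAD arrays were below them, at a log2 fold change of -0.29 (95% interval from -0.66 to 0.07). For rpoC1, which encodes the beta' subunit, the signal was 2582 and 2662 in mock leaves against 2363 and 2266 in FAD leaves. The groups did not overlap there either, and the log2 fold change was -0.18 (95% interval from -0.54 to 0.18).

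For rpoC2, which encodes the beta'' subunit, the value had the other sign. The signal was 775 and 1072 in mock leaves against 855 and 1290.0 in FAD leaves, with number 2 above number 1 in both treatments, and the log2 fold change was 0.20 (95% interval from -0.39 to 0.80). The gene of the beta subunit, rpoB, was below the filter, at 39.2 and 58.0 in mock leaves against 1.98 and 65.1 in FAD leaves. Its FAD arrays were the lowest and the highest of the 4, so that no fold change is given for it.

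The other members had 8 tested genes, 7 with a negative and 1 with a positive value, and a median of -0.05. The groups overlapped in all 8, where over all tested probe sets 15% had both FAD arrays below and 22% above both mock arrays. The lowest value belonged to accD, a subunit of the acetyl-CoA carboxylase of fatty acid synthesis, at 1441 and 1637 in mock leaves against 1012 and 1446 in FAD leaves. Its highest FAD value was just above its lowest mock value, and the log2 fold change was -0.34 (95% interval from -0.84 to 0.15).

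The gene clpP encodes a proteolytic subunit of the Clp protease. It gave 9581 and 18799.5 in mock leaves against 13187 and 16727 in FAD leaves. The mock arrays enclosed the FAD arrays, and its log2 fold change of 0.15 was -0.34 without mock replicate 1 and 0.63 without mock replicate 2.

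For ycf1, which encodes a large protein of the inner envelope linked to protein import (TIC214), 3 arrays lay between 3838 and 3878 and FAD replicate 2 was at 2679. Its log2 fold change of -0.26 was accordingly 0.01 without that array. The photosystem I assembly genes ycf3 and ycf4 had log2 fold changes of -0.03, which was 0.01 with quantile normalization, and -0.17. For ycf3 the signal was 2379.5 and 3152 in mock leaves against 2970.4 and 2426 in FAD leaves, so that the treatments differed by 0.32 within number 1 and by -0.38 within number 2.

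The log2 fold change was -0.05 for matK, the maturase of group II introns, -0.02 for ccsA, which helps to attach haem to c-type cytochromes, and -0.04 for cemA, an envelope membrane protein. For ccsA the arrays paired by number rather than treatment, with 14052.5 and 18482 in mock leaves against 13651 and 18389 in FAD leaves. The gene ycf2, which encodes a part of an ATP-driven import motor, was below the filter, with signals between 53.4 and 68.6.

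The median log2 fold change was -0.13 over the 19 ribosomal genes, -0.18 over the 3 tested polymerase genes and -0.05 over the 8 others. With 1 array left out these medians spanned -0.22 to 0.01, -0.20 to -0.15 and -0.25 to 0.11, so that the ranges overlapped. Each range came from leaving out the same arrays in turn, so the overlap does not show whether the groups differ. No test of the differences between the groups was made, because the genes of a group are no replicates of a treatment.

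**Figure D3:**
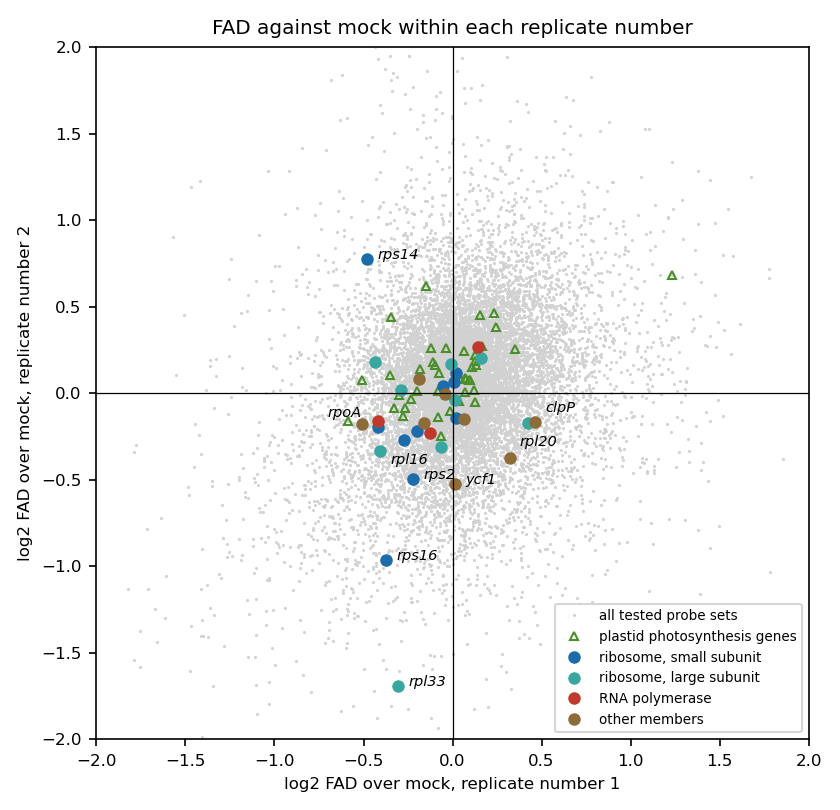
Log2 fold change of FAD over mock within replicate number 1 (horizontal) and within number 2 (vertical) for the tested members, coloured by role, the tested plastid photosynthesis genes (triangles) and all tested probe sets (grey; 48 lie outside the axes). Of the 30 members 13 fall to the lower left of 0 on both axes, and rpl33 and rps16 lie far lower within number 2 than within number 1.

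Gene order along the plastid chromosome was taken from the reference gene table, and genes with few or no other protein gene between them were read together. The cluster from rpl23 to rpoA is transcribed largely as 1 ribosomal protein operon. Of its 9 named genes, all tested, 8 had a negative value and rpl2 a positive one, with a median of -0.13 and a range from -0.37 to 0.18. The lowest values in it were those of rpl16 and of rpoA, the most distal gene. Without FAD replicate 1 the values of rps3, rpl14, rpl36 and rps19 turned positive, at 0.01, 0.07, 0.08 and 0.11.

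The neighbours psaJ, rpl33 and rps18 all had negative values. The photosystem I gene psaJ stood at -0.38, between the -1.0 of rpl33 and the -0.27 of rps18, though its arrays overlapped. In the stretch from rpoB through rpoC1, rpoC2 and rps2 to the ATP synthase genes the signs were mixed, since rpoC1 and rps2 were negative while rpoC2 was positive. The atpI gene next to rps2 had 540.4 and 493 in mock leaves against 639 and 642 in FAD leaves, a log2 fold change of 0.31 (limma adjusted p = 0.782), with both FAD arrays above both mock arrays.

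The 3 genes from clpP through rps12 to rpl20 had values of 0.15, -0.21 and 0.13. The second rps12 probe set had -0.08. Both rps12 probe sets are annotated to 2 loci, and which part of the trans-spliced transcript they read was not tested. In the cluster of accD, psaI, ycf4, cemA and petA, 3 of 5 values were negative, which were those of the members, while the photosynthesis genes psaI and petA had 0.15 and 0.07. The member rps14, which follows psaA and psaB, had a positive value as they did, with 0.15 beside 0.11 and 0.04. Without FAD replicate 2 all of these turned negative, at -0.19 for rps14, -0.12 for psaA and -0.003 for psaB. Neighbours thus shared a sign in some clusters and not in others, and none of these values passed the test.

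**Figure D4:**
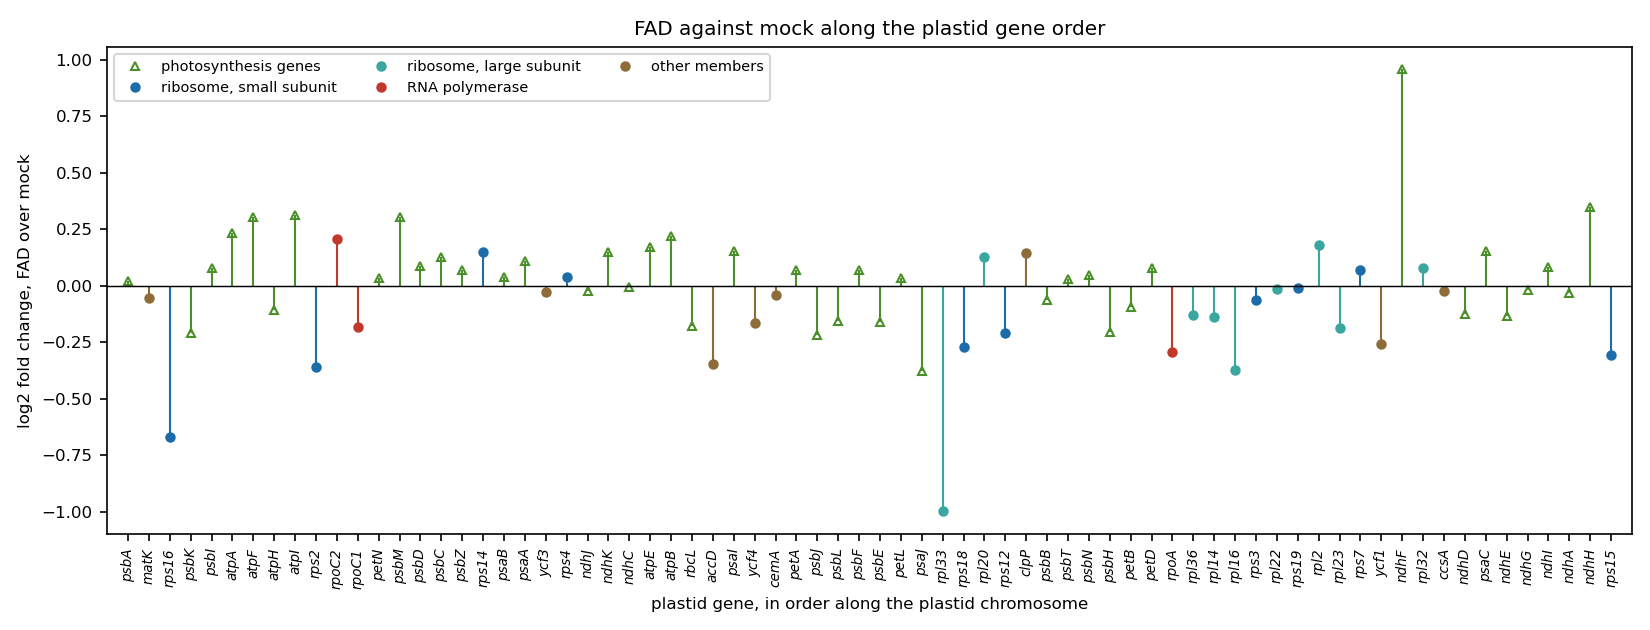
Log2 fold change of FAD over mock for the tested plastid genes in their order along the plastid chromosome (spacing not to scale); filled circles are the members, coloured by role, and open triangles the photosynthesis genes. The members rpl33 (-1.0) and rps16 (-0.67) have the lowest values, and 8 of the 9 genes from rpoA to rpl23 lie below 0. Without FAD replicate 1, rps3, rpl14, rpl36 and rps19 turned positive.

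The plastid genes for photosynthesis gave a background from the same genome. Of 44 such genes with a probe set 42 were tested, 26 with a positive and 16 with a negative value and a median of 0.04, against -0.10 for the members. This median also depended on single arrays. It was -0.03 without mock replicate 1, 0.12 without mock replicate 2, 0.18 without FAD replicate 1 and -0.10 without FAD replicate 2. Both FAD arrays were below both mock arrays in 3 of the 42, or 7.14%, where the share of all tested probe sets was 15%. They were above both mock arrays in 6, or 14.3%, where that share was 22%. The genes with the largest moderated t were psbM at 0.30, atpI at 0.31 and atpB at 0.22, all higher on both FAD arrays, with limma adjusted p from 0.758 to 0.810. None of the 42 passed, and the difference between both sets was not tested.

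Nuclear genes whose products work with the members were covered only in part. Of 38 nuclear genes for plastid ribosomal proteins on the list, 10 could be tested, with a median of -0.14. Of these 9 had a negative value, where 5800 of the 13648 tested probe sets were negative. The lowest belonged to AT5G47190, a gene for ribosomal protein L19 of the plastid, with -0.52 ± 0.15 (log2 fold change and SE, adjusted p = 0.539 in limma). It was followed by AT3G54210 (L17) at -0.24 and AT4G01310 (L5) at -0.22, and 0 of the 10 passed, with 1 at an unadjusted p under 0.05. Within replicate number 2 all of these 10 nuclear genes were below mock. Within number 1 most were above it, such as AT4G17560 at 0.16, against -0.55 within number 2. AT5G47190, AT3G54210 and AT4G01310 were below mock within both. The nuclear median of -0.14 lay near that of the 19 plastid-encoded ribosomal genes, -0.13. Within number 1 those 19 had a median of -0.20, so the likeness did not hold there. Whether both sets change together was not tested.

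Of 15 nuclear Clp protease genes 6 could be tested, 5 with a negative value, and their median was -0.22. The genes AT4G25370, AT2G03390 and AT4G12060 had log2 fold changes of -0.35, -0.34 and -0.40, with limma adjusted p from 0.750 to 0.765. In each, both FAD arrays were below both mock arrays, which held for 15% of all tested probe sets. Of 14 nuclear partners of the ccsA and ycf proteins 4 could be tested, 3 with a positive value, and the largest was 0.25 for AT1G22700, a photosystem I assembly factor. No sigma factor, polymerase-associated protein or nuclear acetyl-CoA carboxylase gene on the lists had a probe set named for it alone in the annotation used. That annotation gave 1 gene symbol entry for 13513 of the 22746 probe sets, so the array may still hold probes for these genes. The only named phage-type polymerase, AT5G15700, was below the filter.

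The replicate number went with the members' signals more evenly than the treatment did. On mock replicate 2, 26 of the 30 tested members were brighter than on mock replicate 1, or 86.7%, where the share of all tested probe sets was 44.1%. On FAD replicate 2, 23 of the 30 were brighter than on FAD replicate 1, or 76.7%, against 46.9%. In both treatments at once this held for 19 members, or 63.3%, against 24.5%. The median difference of number 2 over number 1 was 0.17 in mock and 0.24 in FAD leaves on the log2 scale. Between single arrays of one number, the members' median of FAD over mock was -0.10 for number 1 and -0.17 for number 2.

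The photosynthesis genes of the plastid moved likewise, with 36 of 42 brighter on number 2 in both treatments, or 85.7%. Among the members clpP, rps2 and rpl20 had the largest such differences in mock leaves, while rpl33, ycf1 and rps16 were among those dimmer on FAD replicate 2 than on FAD replicate 1. The control probe set for nuclear-encoded 25S ribosomal RNA also read higher on number 2, with 1684 and 1993 in mock leaves against 1753 and 1946 in FAD leaves. What arrays of one number have in common is not stated in the labels, and the part of ribosomal or organelle RNA content in these differences was not tested.

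**Figure D5:**
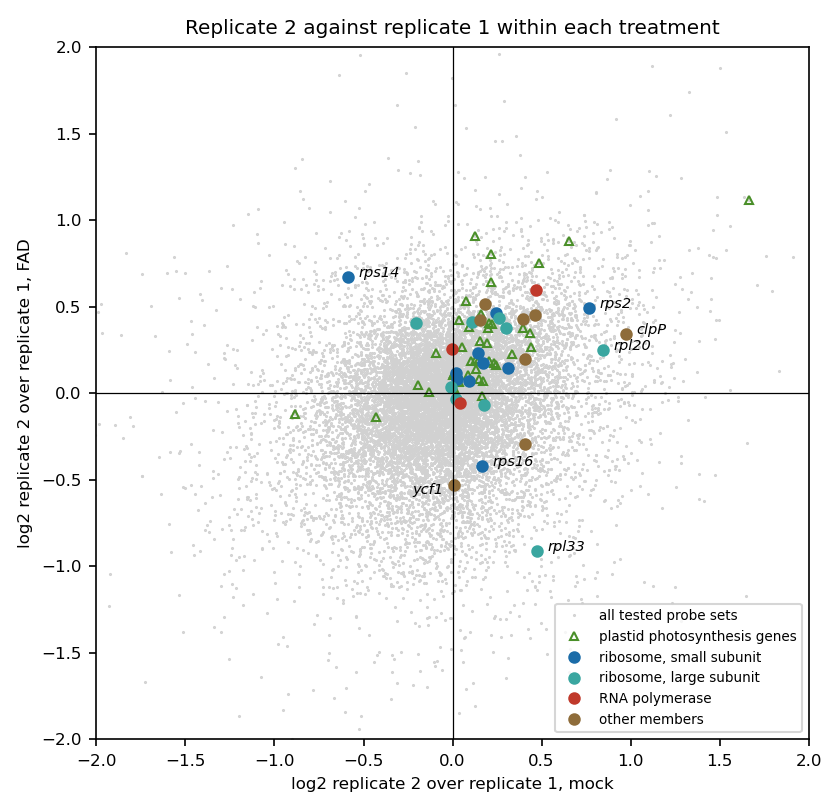
Log2 ratio of replicate 2 over replicate 1 in mock (horizontal) and FAD leaves (vertical) for the tested members, coloured by role, the tested plastid photosynthesis genes (triangles) and all tested probe sets (grey; 40 lie outside the axes). To the upper right of 0, brighter on number 2 in both treatments, lie 19 of the 30 members and 36 of the 42 photosynthesis genes.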

How the data were processed

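Per the labels' protocols, a 3' kit made biotin-labelled target from total RNA. GCOS is the tool named, per the submitters' processing notes; for its version and algorithm, nothing is given in the sources used here. Each deposited value is the linear intensity of 1 probe set on 1 array. Their 2% trimmed means differed by 0.000764%, so the authors' scaling was kept; with it, a change in the total of all signals cannot be seen. Signals were log2 transformed with no constant, the 64 control probe sets were set aside, and FAD was compared with mock in limma 3.58.1 (R 4.3.3; lmFit, eBayes with a mean-variance trend, treatment as the only term, 5.43 prior and 2 residual degrees of freedom). P-values were adjusted over all tested probe sets by Benjamini-Hochberg.

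Members were matched through gene IDs to plastid loci of the TAIR10.1 gene table; no coordinates are given because the files name no build. For 6 members the annotation gives 2 gene IDs, copies whose signals cannot be separated. Mitochondrial genes of the same name were left out, and whether probes also detect nuclear or mitochondrial copies of plastid DNA was not tested. All members are described; of other lists up to 3 genes with the largest moderated t were named. Members and lists were chosen with earlier results of these data known. The fit was tested on simulated data. The labels call replicates biological without saying what was separate, so p-values measure the spread between these samples, and 2 arrays a group limit the precision.

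The fit was repeated without the trend, with the replicate number as a block, with each array left out, with quantile or median normalization, with 32 added to every intensity, unfiltered, and filtered at the 60th percentile. A centring on the plastid photosynthesis genes and medians that include members under the filter were added after seeing the data.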

Additional observations from a re-analysis of the deposited data

How the results depend on the processing

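Over 12 alternative fits no member was called except rpl33, which passed with the replicate block (limma adjusted p = 0.0373; members called lower 1), where 36 probe sets were called higher and 153 lower in place of 0 and 5. Deviations from the group mean correlated between arrays of one number at 0.219 over probe sets and 0.0027 over the members. Over the tested plastid photosynthesis genes the correlation was 0.694, and over the mitochondrial genes 0.488. It takes no account of a shift common to all genes of a set, and with 2 numbers it does not show a pairing. Median centring made the 5 lower calls 18, centring on plastid photosynthesis genes (chosen after seeing the data) 24, dropping the filter 2, filtering at the 60th percentile 2 and dropping the trend 0; with 1 array left out it ran from 1 to 4, and the count higher from 0 to 1. The members' median ran from -0.2389 to 0.05566 with 1 array left out, and that of the large subunit from -0.1908 to 0.06879. The sign held in all fits for 11 of 31 member probe sets: rps12 (brighter), rps15, rps16, rps18, rpl2, rpl16, rpl23, rpl33, rpoA, rpoC1 and accD. With median centring the value was -0.0512 for rps4, -0.0223 for rps7 and -0.00995 for rpl32; with quantile normalization it was -0.00648 for rps7 and 0.00872 for ycf3. With 1 array left out values ran from -0.2192 to 0.0581 for the second rps12 probe set, -0.1885 to 0.4826 for rps14, -0.1253 to 0.1087 for rps19, -0.744 to 0.0227 for rps2, -0.2203 to 0.0925 for rps3, -0.00165 to 0.0786 for rps4, -0.3438 to 0.0688 for rpl14, -0.2982 to 0.5488 for rpl20, -0.0307 to 0.00296 for rpl22, -0.136 to 0.2955 for rpl32, -0.3295 to 0.0751 for rpl36, -0.0921 to 0.5011 for rpoC2, -0.2394 to 0.1904 for ccsA, -0.2462 to 0.1609 for cemA, -0.34 to 0.6325 for clpP, -0.2659 to 0.1572 for matK, -0.523 to 0.0104 for ycf1, -0.2317 to 0.174 for ycf3 and -0.3981 to 0.0642 for ycf4. The causes were not tested; in fits without 1 array the lone array is assumed to vary like the others.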

Other observations

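Mitochondrial genes gave another view of organelle transcripts. Of 17 mitochondrial gene entries with a named probe set 13 were tested, 9 with a positive and 4 with a negative log2 fold change. Their median was 0.16, against 0.05 over all tested probe sets, and it was -0.04 without FAD replicate 2. The 1 probe set annotated to the mitochondrial genes rps3 and rpl16, namesakes of plastid members, gave 304.2 and 337 in mock leaves against 291.4 and 439 in FAD leaves, so that the treatments overlapped. On the number 2 arrays 6 of the 13 were brighter in both treatments, against 19 of the 30 plastid members. In limma, none of the 13 passed the adjustment over all probe sets tested. At an unadjusted limma p under 0.05, 2 were higher on FAD and 0 lower, against 3.03% and 3.84% of all tested probe sets.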
